A study of Mus musculus with 10 samples.

Results

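The interval described here covers chr4:59500000-62200000 on the mm9 mouse genome build and bears the cluster of major urinary protein (Mup) genes, among them Mup3, Mup4 and Mup20. Its members are the array probes on chromosome 4 whose mapped start lies in that range. They number 100 of the 170305 probes on the array, and 161460 of those are autosomal. Within the interval the probes were taken by position and not by any measured value. The interval itself was chosen with earlier results of these data known.

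Major urinary proteins are small lipocalins, barrel-shaped carriers of volatile ligands. Most are made in the liver, secreted into the blood and passed into the urine, where they act as pheromones and as slow-release carriers of pheromones. Mup20 encodes darcin, a male urinary protein that attracts females, Mup3 is a liver gene, and Mup4 is known for its product in nasal and lacrimal glands. The genes lie as a tandem array of close relatives, and such arrays are known for recent duplication and for copies that are hard to tell apart by sequence.

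The study compared genomic DNA from the livers of 5 mice derived by intracytoplasmic sperm injection (ICSI) with that of 5 naturally born mice, by 2-colour comparative genomic hybridisation. The ICSI-derived animals came from testis cells frozen for 14 years. Their background was ZFLacZ sperm with an oocyte of DBA x C57BL/6, and the ZFLacZ transgenic line was made on SJL x C57BL/6. The naturally born animals were adult, wild-type ZFLacZ progeny. Each group held 3 animals labelled male (replicates 1 to 3) and 2 labelled female (replicates 4 and 5). Origin by ICSI and strain therefore come together, and their effects cannot be told apart. All 10 animals were read against 1 reference, which pooled C57BL/6, SJL and DBA liver DNA equally. Values above 0 on the log2 scale mean more signal from the animal (Cy5) than from the pool (Cy3), after the median of each array's autosomal probes was set to 0.

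One array stood apart. On chromosome X the mean log2 ratio was between -0.61 and -0.55 in 5 animals labelled male and between 0.26 and 0.28 in the 4 labelled female, a difference of 0.85. Naturally born replicate 3, labelled male, lay at -0.033, and on chromosome Y at -0.0072 against 0.75 to 0.82 in the other males. Group and sex differences are given with it and, beside them, without it. The spread between neighbouring probes, from the file headers, was 0.201 for ICSI-derived replicate 1, 0.208 for ICSI-derived replicate 4 and 0.173 for naturally born replicate 2. It was between 0.14 and 0.151 on the other 7 arrays. The number of arrays limits the precision of every value below.

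The RefSeq annotation of a later build, GRCm38.p6, lists 22 numbered protein-coding Mup genes and 24 Mup pseudogenes on chromosome 4. In order they are Mup4, Mup6, Mup7, Mup2, Mup8, Mup9, Mup1, Mup10, Mup11, Mup12, Mup22, Mup13, Mup14, Mup15, Mup16, Mup17, Mup18, Mup19, Mup5, Mup20, Mup3 and Mup21. Before the cluster lie Snx30, a sorting nexin gene, and Slc46a2, a transporter gene expressed in thymic stroma. After it lie Zfp37, a zinc finger gene, and Slc31a2, a copper transporter gene. The probe positions are those of mm9 and the annotation is not, so no probe was assigned to a gene, and no copy number of Mup3, Mup4 or Mup20 is given.

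The start-site windows of RefSeq (250 bases before to 50 after the annotated start) show how alike the genes are. A window was given for 14 of the 22 genes. The 6 stretches below are shown because 3 come from genes at the ends of the order and share no 60-base word with any other gene's window, while 3 come from its middle and share most of theirs. Each is 120 bases upstream of the annotated start, 5′ to 3′ on the gene's strand, and ends at the first TATATAA, in capitals. They lie on GRCm38.p6 at chr4:59960690-59960809 (Mup4), chr4:62087322-62087441 (Mup3), chr4:62150843-62150962 (Mup21), chr4:61439723-61439842 (Mup15), chr4:61595851-61595970 (Mup17) and chr4:61782249-61782368 (Mup19), all on the minus strand.
Mup4: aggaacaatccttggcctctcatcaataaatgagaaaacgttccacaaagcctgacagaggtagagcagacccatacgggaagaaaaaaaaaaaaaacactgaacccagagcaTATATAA
Mup3: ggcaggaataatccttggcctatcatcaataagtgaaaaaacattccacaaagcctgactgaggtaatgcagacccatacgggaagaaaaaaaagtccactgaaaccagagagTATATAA
Mup21: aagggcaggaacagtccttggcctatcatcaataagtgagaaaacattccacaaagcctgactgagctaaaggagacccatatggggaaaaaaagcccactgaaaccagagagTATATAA
Mup15: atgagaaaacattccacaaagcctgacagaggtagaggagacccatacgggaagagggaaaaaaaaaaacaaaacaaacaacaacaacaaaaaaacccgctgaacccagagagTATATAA
Mup17: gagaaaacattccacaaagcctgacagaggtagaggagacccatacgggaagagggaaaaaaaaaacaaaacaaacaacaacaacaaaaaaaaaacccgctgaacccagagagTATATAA
Mup19: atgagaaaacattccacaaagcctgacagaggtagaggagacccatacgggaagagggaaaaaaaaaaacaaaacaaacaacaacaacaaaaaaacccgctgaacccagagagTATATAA

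In these windows, of 241 possible 60-base words, 239 of Mup15, 232 of Mup19 and 184 of Mup17 also occurred exactly in the window of another gene. Mup11 shared 160, Mup2 133, Mup9 112, Mup14 71, Mup18 67, Mup7 10 and Mup10 5. Mup4, Mup6, Mup3 and Mup21 shared 0; the first pair opens the order of the genes and the second pair closes it. So 10 of 14 Mup windows held a shared word, against 17.9% of all 27025 windows. The 17.9% can also count neighbouring genes whose windows overlap on the genome, as both strands were searched. The Mup windows shared words only with windows of other Mup genes. Over aligned bases, gaps not counted, the 91 pairs of Mup windows were between 83.3% and 100% identical, with a median of 93.4%. Mup15 and Mup17 were identical at 100% of 297 aligned bases and Mup15 and Mup19 at 99.0%, whereas Mup3 and Mup4 were identical at 89.2% and Mup3 and Mup21 at 93.9%. The letters TATATAA, sought on both strands after the sequences had been seen, occurred in 13 of the 14 Mup windows, all but that of Mup7, and in 3.46% of all windows. The array's probes are up to 60 bases long. Whether shared words bear on the probe layout described next was not tested.

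The array read the edges of the interval and not its middle. Between the probe that ends at position 60011409 and the one that starts at 61476789 lay 1.465 Mb without a probe, 54.3% of the interval. Of 161441 distances between neighbouring autosomal probes this was the 12th largest, and 17 exceeded 1 Mb, where the median was 10.8 kb. In the interval as a whole the density was 3.70 probes per 100 kb, against 8.96 in the 2.7 Mb before it, 6.48 in the 2.7 Mb after it, 6.54 on chromosome 4 and 6.71 over all autosomes. Outside the gap the density was not low. The proximal edge, from 59500000 to 60011409, held 49 probes at 9.58 per 100 kb, and the distal edge, from 61476789 to 62200000, held 51 at 7.05 per 100 kb. Of 9 windows of 300 kb, 4 held no probe, and the windows from the start onward held 32, 17, 0, 0, 0, 0, 5, 18 and 28.

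**Figure D1:**
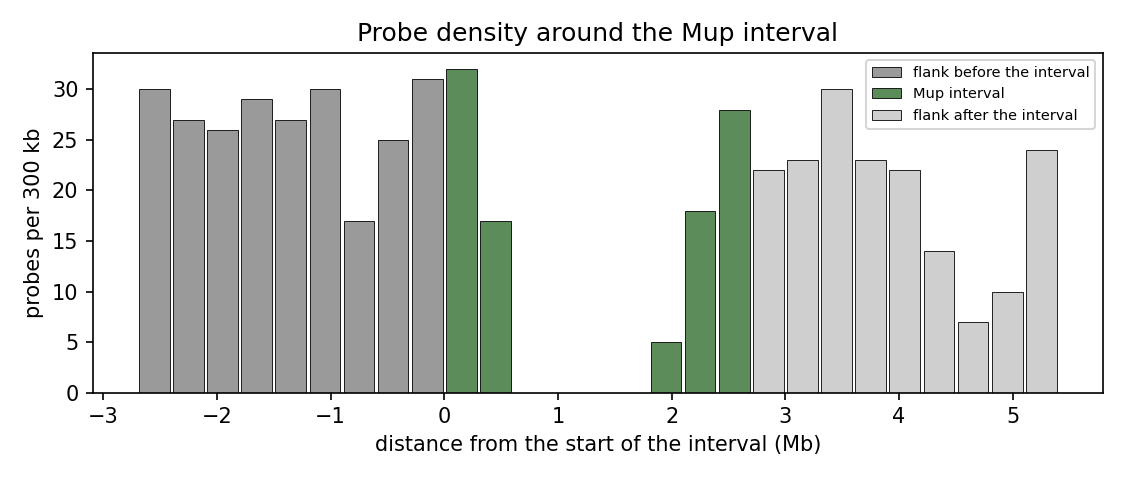
Bars give the number of probes in each 300 kb window against distance from the start of the Mup interval in Mb, for the interval and for 2.7 Mb on either side. The interval falls from 32 probes in its first window to 0 in 4 consecutive windows and comes back to 28 in its last, while every flanking window holds between 7 and 31.

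Probes that border the gap on its distal side were often short. Of the first 20 there, 8 were shorter than 60 bases (40.0%), and of all 51 distal probes 9 were (17.6%). The share was 3 of 49 at the proximal edge, 5.52% in the flanks and 4.38% over autosomes. The shortest had 46 bases, and the first probe after the gap had 49. Some distal probes were also bright: 8 of 51 (15.7%) had a mean Cy3 signal above the autosomal 95th percentile of 2446, against 0 of 49 at the proximal edge. The median Cy3 signal was 1187 at the proximal edge, 1058 at the distal edge and 1096 over autosomes. Signals of different probes are not compared as amounts of DNA. All 100 members were well above background in both channels on all 10 arrays. Of them, 3 carried an outlier flag on at least 1 array, against 764 of 161460 autosomal probes and 1 of 417 flanking probes. The flagged probes at chr4:62129961-62130020 and chr4:62144188-62144247 have 5 spots each, so more spots could carry a flag.

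Averaged over the 100 members, every animal lay close to the pool. No probe was assigned to a gene, so how many of them lie in Mup genes or in neighbouring DNA is not known. In ICSI-derived replicates 1 to 5 the mean log2 ratio was 0.026, 0.0, 0.011, 0.028 and -0.0017. In naturally born replicates 1 to 5 it was -0.029, 0.038, 0.0049, 0.058 and 0.0004. The groups overlapped, with the lowest and the highest animal both naturally born. The means were 0.013 ± 0.014 (SD, n = 5) and 0.015 ± 0.034 (SD, n = 5). The ICSI-derived animals differed by -0.002, with a 95% interval from -0.043 to 0.034 (exact permutation test over animals, two-sided, p = 0.873, n = 5 and 5), where the smallest p that 252 splits allow is 0.00794. Without naturally born replicate 3 the difference was -0.0044 (exact permutation p = 0.786). The 95% interval is narrow beside the 0.85 between the labelled sexes on chromosome X, which is a difference along a whole chromosome. A change in few copies of a tandem array, or at few of the 100 probes, would move the mean less and could go unseen. The difference also speaks only for the edges that carry probes.

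Taken against its flanks, the interval gave the same picture. Its mean minus that of the 417 flanking probes was 0.025, 0.0094, 0.022, 0.026 and 0.0074 in ICSI-derived replicates 1 to 5. In naturally born replicates 1 to 5 it was -0.022, 0.025, 0.0083, 0.049 and 0.018. All animals but naturally born replicate 1 were slightly above their flanks. The group difference was 0.0023, with a 95% interval from -0.024 to 0.031 (exact permutation test, two-sided, p = 0.825). Without naturally born replicate 3 it was 0.0005 (exact permutation p = 0.992). At the proximal edge alone the difference was -0.0042 (95% interval -0.041 to 0.035, exact permutation p = 0.754), and at the distal edge alone it was 0.0002 (95% interval -0.045 to 0.039, exact permutation p = 0.992). Without naturally born replicate 3 the edges gave -0.0073 (exact permutation p = 0.683) and -0.0016 (exact permutation p = 0.937), so the distal value changed sign.

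**Figure D2:**
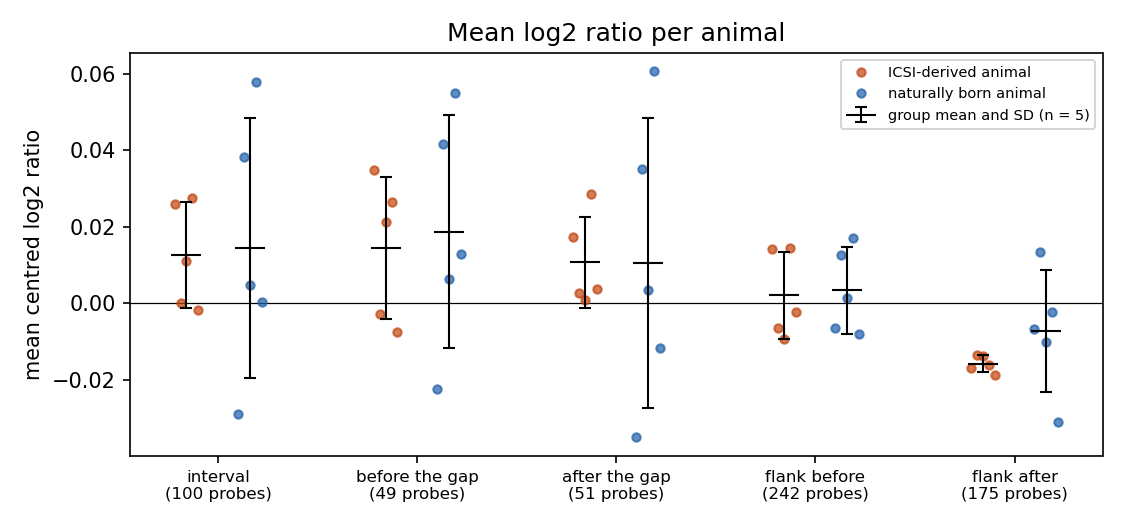
Each point is the mean centred log2 ratio of 1 animal over the probes named on the horizontal axis, with the group mean and SD (n = 5) as bars. The 2 groups overlap in all 5 sets of probes, and in the interval the animals lie between -0.029 and 0.058.

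None of the 5 windows that hold probes passed the test after Benjamini-Hochberg adjustment over those 5. With 252 splits, 1 window alone could pass only at the smallest exact permutation p, 0.00794. The widest difference was in the seventh window, which opens after the gap and has 5 probes. There the ICSI-derived animals had means of -0.10, -0.062, 0.091, 0.048 and -0.017. The naturally born animals had 0.050, 0.21, -0.037, 0.13 and 0.038, so the groups overlapped. The difference was -0.086, with a 95% interval from -0.23 to 0.041 (exact permutation p = 0.151, adjusted p = 0.754). Its size changed with the setting and with the animals kept. It was -0.016 as a median over the 5 probes, -0.030 with normexp background correction, and -0.041 without the 3 noisiest arrays. It was -0.052 without naturally born replicate 2 and -0.11 without naturally born replicate 3 (exact permutation p = 0.0714, adjusted p = 0.357). Within slide 1 it was -0.21, and within slide 2 it was 0.025. In windows 1, 2, 8 and 9 the differences were -0.013, 0.012, -0.0003 and 0.016, with exact permutation p from 0.452 to 1.0. They were -0.016, 0.0088, -0.0072 and 0.022 without naturally born replicate 3, with exact permutation p from 0.397 to 0.81.

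Probe by probe, limma with group and sex label in the model called 0 of the 100 members between ICSI-derived and naturally born animals at a Benjamini-Hochberg adjusted p under 0.05, where 0.0198% of autosomal probes (32 of 161460) were called. At an unadjusted p under 0.05 the counts were 4 of 100 members and 3.27% of autosomal probes. The smallest limma unadjusted p of a member, 0.00487, was at chr4:59811846-59811905 (mean Cy3 signal 210), looked up after its values had been seen. There the ICSI-derived animals were higher by 0.33 ± 0.095 (SE), and by 0.38 ± 0.094 (SE, limma unadjusted p = 0.00178) without naturally born replicate 3. The member with the next smallest p, described below, went the other way. With naturally born replicate 3 left out, 0 members were called and 5 had an unadjusted p under 0.05. Of the 161460 autosomal probes, 26 were then called and 4999 had an unadjusted p under 0.05. Of the members, 49 were higher in the ICSI-derived animals. Their median absolute group difference was 0.036, against 0.041 over autosomes. Groups that did not overlap were seen in 1 member, against 0.51% of autosomal probes. That probe, at chr4:59862666-59862725, read -0.072, -0.29, -0.024, -0.066 and -0.12 in ICSI-derived replicates 1 to 5. In naturally born replicates 1 to 5 it read -0.015, 0.15, -0.0099, -0.020 and 0.11. ICSI-derived replicate 3 and naturally born replicate 4 nearly met, and the adjusted p in limma was 1.0 with or without naturally born replicate 3.

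The same fit called 0 of the 100 members between labelled females and labelled males, against 0.00372% of autosomal probes (6 of 161460). At an unadjusted p under 0.05 the counts were 2 of 100 members and 2.91% of autosomal probes. The limma counts were 0 called and 1 at an unadjusted p under 0.05 without naturally born replicate 3. Of the 161460 autosomal probes, 6 were then called and 4418 had an unadjusted p under 0.05. Mup genes are known for higher expression in males, and the array reads DNA and not RNA.

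No copy number segment overlapped the interval in any of the 10 animals. Segments were runs of at least 5 probes with an absolute mean log2 ratio of at least 0.25, found in each animal by optimal partitioning. On the whole of chromosome 4 the same rule gave 64 segments, summed over the 10 animals. The count in the interval stayed at 0 with 6 other settings of penalty, length and level, which gave 44 to 89 segments on chromosome 4. Whether 0 in the interval is fewer than its probes would hold at that rate was not tested. A change inside the stretch without probes would not be seen.

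**Figure D3:**
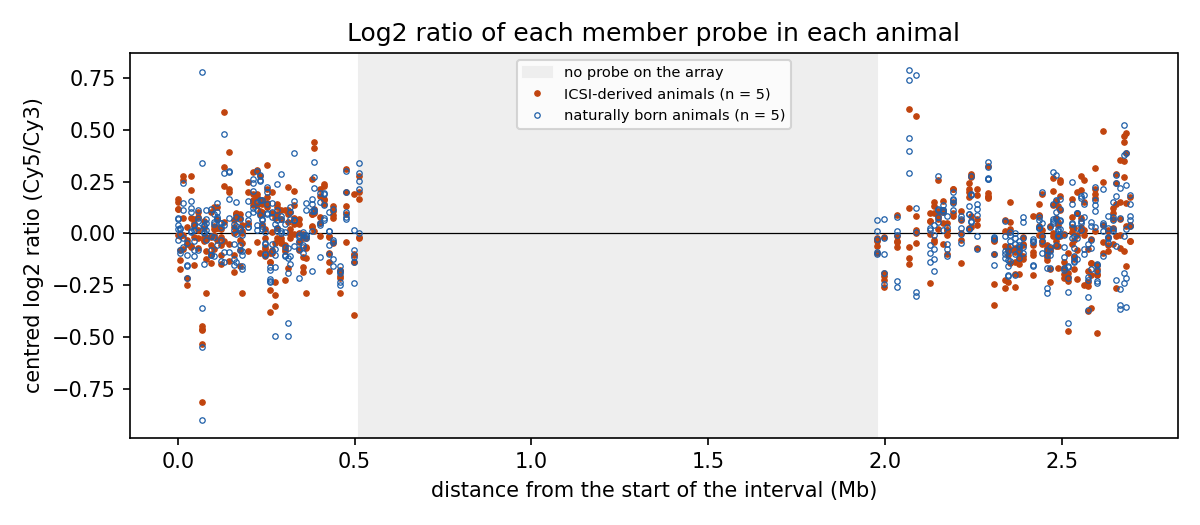
Points give the centred log2 ratio of each of the 100 member probes in each of the 10 animals, against distance from the start of the interval in Mb, filled for ICSI-derived and open for naturally born animals (n = 5 each). The shaded 1.465 Mb holds no probe; on both sides most points lie near 0, with a few single probes that scatter widely.

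The animals differed at few member probes. The SD over the 10 animals had a median of 0.092 over the members and of 0.10 over autosomal probes. It was above the autosomal 95th percentile of 0.21 in 8 of 100 members, against 5.0% over autosomes and 3.60% in the flanks. Of these 8, 3 were at the proximal edge, 2 among the first 5 probes after the gap, and 3 close together near the end of the interval. The mean over animals was 0.25 or more from 0 in 3 members, against 5.31% over autosomes. All 10 animals were on 1 side of 0 at 21 members, 12 above and 9 below, against 19.7% over autosomes. That count was 14 of 51 at the distal edge and 7 of 49 at the proximal edge.

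The most variable member was the proximal probe at chr4:59568704-59568763, whose SD of 0.51 ranked at percentile 99.71 of autosomal probes. In ICSI-derived replicates 1 to 5 it read -0.47, -0.46, -0.45, -0.81 and -0.53. In naturally born replicates 1 to 5 it read -0.90, -0.55, -0.36, 0.78 and 0.34. Naturally born replicates 4 and 5 were high and the other 8 animals were low, so the naturally born group held both the lowest and the highest value. The high animals are the 2 labelled female in that group, while the 2 labelled female ICSI-derived animals were low. Neither contrast was called: the group difference was -0.41 ± 0.22 (SE, limma unadjusted p = 0.0869), and the sex difference, females minus males, was 0.47 ± 0.22 (SE, limma unadjusted p = 0.0538), both with an adjusted p of 1.0. The limma differences were -0.41 ± 0.24 (SE) and 0.47 ± 0.24 (SE) without naturally born replicate 3, again with an adjusted p of 1.0.

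The next most variable pair sits just past the gap and is dim. The probe at chr4:61568670-61568729 had an SD of 0.35 and a mean Cy3 signal of 245, below the autosomal 5th percentile of 357. It read -0.15, -0.067, 0.60, -0.12 and 0.12 in ICSI-derived replicates 1 to 5, and 0.40, 0.74, 0.29, 0.79 and 0.46 in naturally born replicates 1 to 5. All naturally born animals were above 0, and ICSI-derived replicate 3 lay among them. The difference was -0.46 ± 0.14 (SE, limma unadjusted p = 0.00727, adjusted p = 1.0). Without naturally born replicate 3 it was -0.52 ± 0.15 (SE, limma unadjusted p = 0.0047, adjusted p = 1.0). Its mean of 0.31 was also the highest of all members.

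The neighbouring probe at chr4:61586829-61586888 had an SD of 0.34 and a Cy3 signal of 143. It read -0.049, 0.016, 0.0024, 0.57 and 0.082 in ICSI-derived replicates 1 to 5, and 0.0054, 0.77, -0.28, 0.12 and -0.30 in naturally born replicates 1 to 5. The 2 high animals, ICSI-derived replicate 4 and naturally born replicate 2, are on 2 of the 3 arrays with the widest spread between neighbouring probes. The part of that spread in the result was not tested. The sixth most variable member, at chr4:59630590-59630649, had an SD of 0.25 and values from -0.14 to 0.59.

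A run of 4 neighbouring probes near the distal end, chr4:62153128-62182581, had a wide spread between animals. It was picked out after its values had been seen, spans 29.5 kb and has no test. Its first probe had an SD of 0.209, just under the autosomal 95th percentile of 0.212. That probe is also dim, with a mean Cy3 signal of 354, where the autosomal 5th percentile was 357. Of the 4 probes, 2 are among the 6 most variable members, at chr4:62175437-62175496 (SD 0.29) and chr4:62182522-62182581 (SD 0.28). Averaged over the 4 probes, ICSI-derived replicates 1 to 5 had 0.29, 0.16, -0.043, 0.28 and 0.13. Naturally born replicates 1 to 5 had -0.26, -0.018, 0.23, 0.33 and -0.22. Both groups held animals above and below the pool. The probes did not order the animals alike, which the means hide. From the first probe of the run, at 62153128, to the second, at 62164667, ICSI-derived replicate 5 went from -0.27 to 0.35 and naturally born replicate 2 from 0.28 to -0.36. The next probe, the last of the interval at chr4:62193220-62193279, lay between -0.038 and 0.19 in all animals, with an SD of 0.079. The third probe, at 62175437, is bright, with a mean Cy3 signal of 3621. It read 0.35, 0.47, -0.086, 0.44 and 0.27 in ICSI-derived animals and -0.24, -0.014, 0.38, 0.52 and -0.19 in naturally born animals, so 3 naturally born animals and 1 ICSI-derived animal were below 0. The limma difference was 0.20 ± 0.15 (SE, unadjusted p = 0.208, adjusted p = 1.0). Without naturally born replicate 3 it was 0.29 ± 0.15 (SE, limma unadjusted p = 0.0742, adjusted p = 1.0).

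**Figure D4:**
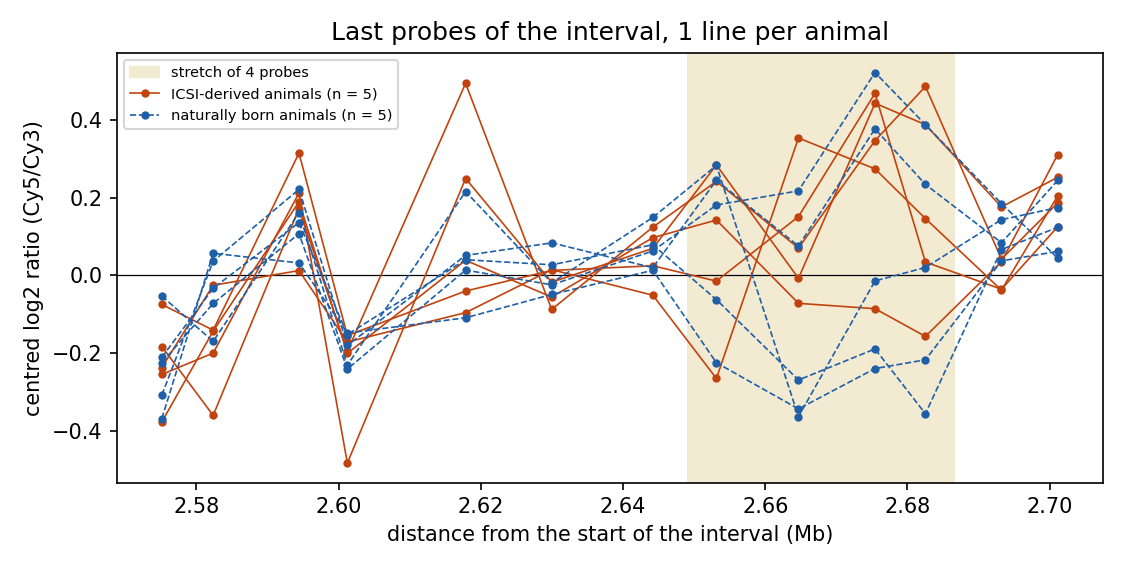
Lines give the centred log2 ratio of each animal at the last probes of the interval and the first beyond it, against distance from the start of the interval in Mb, solid for ICSI-derived and dashed for naturally born animals (n = 5 each). In the shaded run of 4 probes the animals spread from -0.36 to 0.52, with both groups on both sides of 0, and they come together again at the next probe.

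Some members lay on 1 side of 0 in all animals, with sizes that were close together at some probes and not at others. The probe at chr4:61792205-61792258, 54 bases long, was above 0 in 10 of 10 animals with a mean of 0.25 and an SD of 0.067. The probe at chr4:59884196-59884255 was above 0 in all 10 with a mean of 0.21, but ranged from 0.013 to 0.44 (SD 0.15). On the low side, the probes at chr4:62018480-62018539 and chr4:62075135-62075194 were below 0 in all 10, with means of -0.24 (SD 0.12) and -0.23 (SD 0.11). The dyes were not swapped, so at such a probe a difference from the pool and an effect of the dyes cannot be told apart. The probes at the borders of the gap were less extreme. The last before it, chr4:60011350-60011409, had a mean of 0.17 and an SD of 0.14, and the first after it, chr4:61476789-61476837, had a mean of -0.039 and an SD of 0.050. The first member of the interval, chr4:59500547-59500606, had a mean of 0.071 and an SD of 0.067.

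The windows of 300 kb elsewhere on the autosomes whose means followed the interval's mean most closely over the 10 animals were on chromosomes 11, 7, 4, 1 and 17. Their Pearson correlations were between 0.942 and 0.958, the highest of 7861 windows compared, and the windows share arrays with the interval. Their means ranged only from -0.075 to 0.11.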

How the data were processed

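Liver DNA of 10 mice was hybridised on 10 two-colour Agilent arrays, 1 animal per array, on 3 slides scanned on 1 day, and groups were taken from the labels. The authors' deposited scanner files give processed intensity values, background-subtracted and dye-normalised by Feature Extraction 10.7.3.1, per the file headers. As deposited, the value table is in log10 ratios of Cy5 over Cy3, which equalled those of the scanner files within 1e-06 at all 174305 spots, with column medians between -0.0033 and 0.0033. Partek 6.5 is named without a role in the submitters' processing notes. Positions are on mm9, named in 6 headers, and the other 4 arrays have identical positions.

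Control spots were left out, spots of a probe were averaged, and log2 ratios were centred on each array's autosomal median, without loess. The means of the interval, of the interval minus its flanks and of its windows were compared by exact permutation of animals, and 95% intervals come from inverting that test. In R 4.3.3, limma 3.58.1 with group and sex label was fitted over 161460 autosomal probes. Optimal partitioning (penalty factor 3) gave the segments. Both steps were also run on simulated noise with planted changes. For the segments that noise was flat, without the levels of single probes seen here, so it does not show what could be found in the interval. Probes were named by rule (the 6 largest SDs, the 3 highest and the 3 lowest means, the probes at either end of the interval), beside probes at the gap and those said to be picked after their values were seen. Members, lists and rules were chosen with earlier results of these data known. The 2 animals of each replicate number shared a slide and a sex label. Correlations of their deviations ran from -0.277 to 0.151, and the main tests did not treat them as pairs. Sequences are those of RefSeq for GRCm38.p6. Other steps ran in Python 3.11.15 (numba 0.67.0, numpy 2.4.6, pandas 2.3.3).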

Additional observations from a re-analysis of the deposited data

Results flagged for a closer look

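In groups of 5 animals, an animal far from its group was looked for in 40 sets of values, and 3 were found. Chance alone marks about 1 in 20 of sets that were not picked by their values. All 3 lay at probes that had been named for a large SD or a high mean, so that rate does not hold for them. At the proximal probe chr4:59568704-59568763, ICSI-derived replicate 4 read -0.813, while the rest of its group read from -0.53 to -0.45. At the dim distal probe chr4:61586829-61586888, ICSI-derived replicate 4 read 0.5653, while the others of its group lay between -0.049 and 0.082. At the probe chr4:61792205-61792258, ICSI-derived replicate 1 read 0.3253, while the others of its group lay between 0.17 and 0.19. These 2 animals are on the arrays with the widest spread between neighbouring probes, 0.208 and 0.201, and the part of that spread in these values was not tested.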

How the results depend on the processing

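The counts of 0 (members called in either comparison, windows past the threshold, segments in the interval) stayed at 0 under every alternative run. For segments these were other settings of penalty, length and level only, not other centring, background correction or loess. For the windows, the runs within a slide and with the replicate number as a block had too few animals for an exact permutation p under 0.05. Their window counts were thus fixed at 0 in advance and say nothing of stability. Without the 3 noisiest arrays, 1 window alone could not pass after adjustment either. The group differences were near 0 and turned sign under some alternatives. The difference in the interval's mean was 0.0082 within slide 1 and between -0.0128 and 0.0088 with 1 animal left out, above 0 without ICSI-derived replicate 2 or 5 or naturally born replicate 2 or 4. Its exact permutation p lay between 0.246 and 1.0 over all alternatives. Against the flanks it was -0.0045 within slide 2, -0.006 as a median over probes, -0.0014 without the outer 300 kb on either side and -0.0002 without the 3 noisiest arrays, an alternative added after seeing the data, as were the edges and single probes without naturally born replicate 3. With 1 animal left out it lay between -0.0072 and 0.0106, below 0 without naturally born replicate 1, and exact permutation p lay between 0.373 and 1.0. In window 8 the difference was 0.001 when centred on all probes, 0.0001 when centred on chromosome 4, 0.0004 after loess, 0.0123 within slide 2 and also without the noisiest arrays, and 0.0187 as a median, and between -0.0073 and 0.0106 with 1 animal left out. Within slide 1 it was 0.0112 in window 1 and -0.0027 in window 2; within slide 2 it was 0.0254 in window 7 and -0.0439 in window 9, which gave -0.0041 without the noisiest arrays. With 1 animal left out, window 1 lay between -0.0223 and -0.0011, window 2 between -0.003 and 0.0296, window 7 between -0.1146 and -0.0523, and window 9 between -0.0028 and 0.0321. With the replicate number as a block, the interval's difference was -0.002 (exact permutation p = 0.938) and 0.0023 against the flanks (exact permutation p = 0.938), and the block changed no call. The count over all autosomal probes moved more: 32 called between groups became 77 without ICSI-derived replicate 3 and 226 within slide 2, and 6 called between labelled sexes ranged from 0 to 29. Members at an unadjusted limma p under 0.05 numbered 3 to 7 between groups and 1 to 7 between sexes. Over up to 161460 autosomal probes the same counts ran from 3545 to 8647 between groups and from 3883 to 10921 between sexes. The sex comparison was not run with the replicate block or within slide 1, where sex is fixed, nor within slide 3, which holds 1 animal a group. The distances without probes limit what any setting can show.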
